A study of Rattus norvegicus with 2 samples.

Results

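The methionine cycle and transsulfuration genes are the enzymes that carry methionine to homocysteine, cysteine and taurine. They were chosen as 10 named genes, whose probes were found through the RefSeq accessions printed on the array, and they are 10 of 13837 genes that could be named this way. The 10 genes have 13 probes, 1 for each of 7 genes and 2 each for Mat1a, Mat2a and Bhmt. Liver RNA of Sprague Dawley rats was hybridised to 2 one-colour Agilent arrays. The control array carried RNA of animals given sodium chloride, and the other that of animals given senecionine, a pyrrolizidine alkaloid toxic to the liver, at 35 mg/kg (i.g.). Livers were taken at 36 h in either group, and 3 tissue samples were pooled per group. Age and sex are not given in the sources used here. With 1 array of pooled RNA per group there is no replicate and no spread between animals, so no test was made. The error given below is Agilent's spot error, which covers measurement within the arrays only. For bright probes it is close to a fixed share of the signal. On the control array it was 13275 of 132747 intensity units for the brighter Bhmt probe and 900 of 9001 for Gnmt. It is not a spread between repeated measurements, so a gap beyond it does not show that 2 genes differ.

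Methionine is activated to S-adenosylmethionine (SAM), the methyl donor of the cell, by methionine adenosyltransferase, whose catalytic subunit is encoded by Mat1a in adult hepatocytes and by Mat2a in most other and in dividing cells. Methyl transfer leaves S-adenosylhomocysteine, which is split to homocysteine. Homocysteine is either methylated again, in liver largely with betaine, or passed through transsulfuration to cysteine, the precursor of glutathione, taurine and sulfate. The liver carries out most of the body's methionine breakdown.

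A few measures of the arrays bear on these genes. Of 43379 non-control spots, Agilent's software called 44.4% well above background for control and 64.1% for senecionine. Before scaling, the 75th percentile of the processed signal was 101 intensity units for control and 134 for senecionine. Each array was divided by its own percentile. This lowers every senecionine to control ratio by 0.41 on the log2 scale against unscaled signals. In all, 7792 genes were well above background on both arrays and are called measured. Of these, 875 were at least 2-fold higher after senecionine (11.2%) and 1377 at least 2-fold lower (17.7%), so 38.9% of the genes past 2-fold were higher. That split was 67.3% without scaling, 69.9% with ratios centred on hepatocyte markers and 60.5% where detection on either array was enough. Over all measured genes the log2 ratio had a median of -0.14. Array and treatment cannot be told apart.

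The sequences upstream of 5 of the genes are shown. Cbs, Gnmt and Bhmt were chosen because they had the lowest ratios, and Mat1a and Mat2a because they form an isoenzyme pair. Mat1a and Mat2a encode the same enzyme activity but Mat1a was detected in both pools and Mat2a after senecionine only. Each sequence is the 250 bases before the annotated start site, read in the direction of the gene, from RefSeq on build GRCr8. RefSeq windows matched 8 of the 10 genes, all except Bhmt2 and Cdo1. Capitals mark the CCAAT box (CCAAT, or ATTGG on the other strand) and the TATA box (TATAAA, either strand).
Cbs, chr20:9733926-9734175, minus strand: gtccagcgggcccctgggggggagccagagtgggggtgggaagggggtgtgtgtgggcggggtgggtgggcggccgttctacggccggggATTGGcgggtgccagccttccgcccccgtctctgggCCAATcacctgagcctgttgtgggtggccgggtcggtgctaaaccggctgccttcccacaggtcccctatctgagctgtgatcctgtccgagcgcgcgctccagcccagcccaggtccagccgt
Gnmt, chr9:21752032-21752281, plus strand: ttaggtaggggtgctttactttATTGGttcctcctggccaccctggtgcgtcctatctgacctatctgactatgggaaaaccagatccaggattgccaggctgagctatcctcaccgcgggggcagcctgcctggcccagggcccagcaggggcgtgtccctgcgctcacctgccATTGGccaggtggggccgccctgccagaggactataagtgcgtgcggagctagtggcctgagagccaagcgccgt
Bhmt, chr2:26614430-26614679, minus strand: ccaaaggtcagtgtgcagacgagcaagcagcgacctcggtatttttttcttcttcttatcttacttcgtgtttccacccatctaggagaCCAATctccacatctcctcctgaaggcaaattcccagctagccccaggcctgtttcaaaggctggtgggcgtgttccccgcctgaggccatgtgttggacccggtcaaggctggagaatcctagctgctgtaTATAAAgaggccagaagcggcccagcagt
Mat1a, chr16:17016918-17017167, plus strand: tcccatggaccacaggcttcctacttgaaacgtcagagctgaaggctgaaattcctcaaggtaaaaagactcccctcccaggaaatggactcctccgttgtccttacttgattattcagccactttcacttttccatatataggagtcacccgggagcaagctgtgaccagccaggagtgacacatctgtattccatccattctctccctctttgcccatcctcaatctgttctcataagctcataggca
Mat2a, chr4:106053613-106053862, minus strand: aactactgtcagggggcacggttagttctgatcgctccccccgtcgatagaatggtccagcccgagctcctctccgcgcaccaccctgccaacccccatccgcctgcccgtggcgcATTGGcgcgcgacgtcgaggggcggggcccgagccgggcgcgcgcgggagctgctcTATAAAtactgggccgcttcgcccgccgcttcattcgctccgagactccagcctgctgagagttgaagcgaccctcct

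These windows differ in base composition. The Mat1a window holds 3 CpG dinucleotides at a GC content of 48.0%, and the Mat2a window 29 at 67.6%, against medians of 5 and 51.2% over 33469 RefSeq windows of the same length. CCAAT occurred in 5 of the 8 windows, those of Mat2a, Gnmt, Bhmt, Cbs and Cth, and in 34% of all windows. TATAAA occurred in Mat2a and Bhmt, and in 12.9% of all windows. In Bhmt it begins 29 bases before the start site and in Mat2a 78 bases before it. On both strands, the letters TTGCNNAA of a C/EBP-type site occurred in Ahcy and in 9.22% of all windows. The composite ATF4 and C/EBP letters TGATGNAA occurred in none of the 8 and in 3.4% of all windows. No marked match overlaps another in the sequences shown. Such matches are descriptions of these letters and show no binding.

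All 7 pathway genes that could be measured were at least 2-fold lower in the senecionine pool, a call made for 17.7% of all measured genes, and none was at least 2-fold higher. They were Cbs, Gnmt, Bhmt, Ahcy, Bhmt2, Mat1a and Cth, with log2 ratios from -3.25 to -1.40 and a median of -1.89. Past 4-fold lower lay 3 of the 7, against 4.63% of measured genes, and past 1.5-fold lower all 7, against 31.1%. None passed 1.5-fold or 4-fold higher, where 21% and 2.73% of measured genes lay. Of the other members, Mat2a was detected (well above background) for senecionine only, Csad for neither pool, and the single Cdo1 spot carried an outlier flag on the control array. In bulk RNA, fewer hepatocytes and less of a transcript per hepatocyte cannot be told apart.

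**Figure D1:**
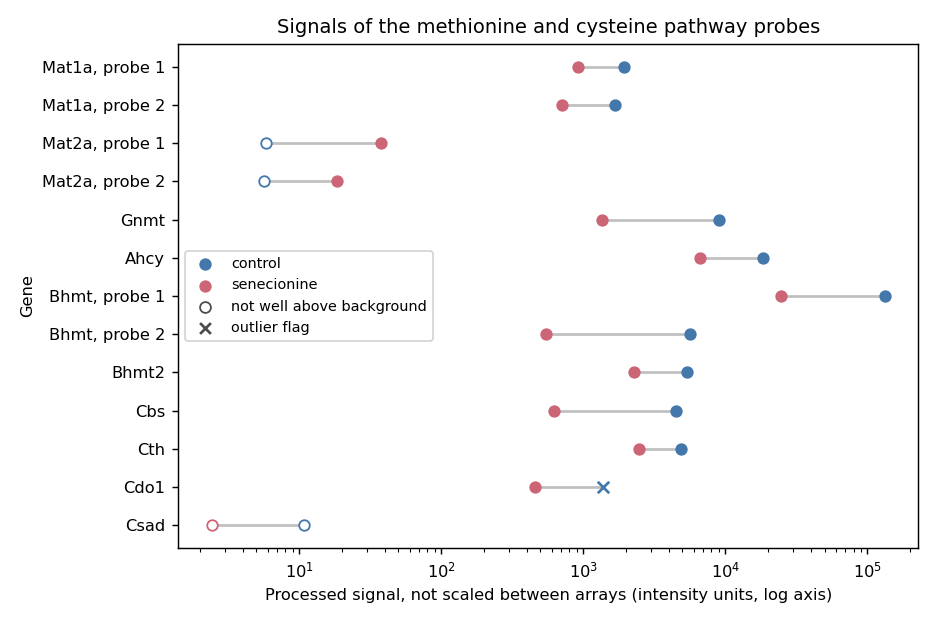
Processed signal in intensity units (log axis, not scaled between arrays) of each of the 13 probes, for the control array (blue) and the senecionine array (red). Open points were not well above background and the cross has an outlier flag. Senecionine lies to the left of control for every probe except the 2 of Mat2a.

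In the first step the isoenzymes differed in detection. On its brighter probe, Mat1a gave 1948 intensity units for control and 923 for senecionine, which was 2.80-fold lower after scaling (log2 ratio -1.48 ± 0.20, spot error). Its other probe gave 1677 and 709 intensity units and a log2 ratio of -1.65. The 2 probes differed by 0.16, within their combined spot error of 0.29, so both place the hepatocyte form lower in the senecionine pool. Mat2a, the form of dividing and non-hepatic cells, was detected for senecionine only. On its brighter probe it gave 5.84 intensity units for control, not well above background, and 37.5 for senecionine. Its other probe gave 5.62, again not well above background, and 18.5. Against the lowest signal called well above background on the control array, 20.6 intensity units, the brighter Mat2a probe was at least 1.37-fold higher, and the other gives no bound above 1. Detection in the senecionine pool alone was common, at 19.1% of 13667 named genes with an unflagged probe, and detection in the control pool alone, at 1.24%, was found for no member. The Mat2a bound ranged from 1.12-fold with cyclic loess to 1.82-fold without scaling. It was not computed with normexp or with ratios centred on hepatocyte markers. The Mat1a and Mat2a transcripts are related in sequence, and cross-hybridisation of their probes was not tested.

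SAM is consumed in liver by Gnmt, glycine N-methyltransferase, an abundant cytosolic enzyme that buffers the SAM level. Gnmt gave 9001 intensity units for control and 1366 for senecionine. It was 8.74-fold lower (log2 ratio -3.13 ± 0.20). Ahcy, which splits S-adenosylhomocysteine and so relieves the inhibition of methyltransferases, gave 18578 and 6669 intensity units and was 3.69-fold lower (-1.89 ± 0.20).

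Both genes of the betaine-homocysteine methyltransferase family were lower. Bhmt, betaine-homocysteine methyltransferase, gave 132747 intensity units for control and 24849 for senecionine on its brighter probe, 7.08-fold lower (-2.82 ± 0.20). On its other probe it gave 5604 and 547 intensity units, 13.6-fold lower (-3.77). The probes agree in direction but differ by 0.94, more than their combined spot error of 0.29. Neither was saturated, and why they differ was not tested. Bhmt2, a related enzyme that uses S-methylmethionine as methyl donor, gave 5369 and 2283 intensity units and was 3.12-fold lower (-1.64 ± 0.20). Bhmt and Bhmt2 are similar in sequence, so their probes may share signal, which was not tested.

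In transsulfuration the entry enzyme had a lower ratio than the exit enzyme. Cbs, cystathionine beta-synthase, which commits homocysteine to cysteine, gave 4483 intensity units for control and 626 for senecionine. It was 9.51-fold lower (-3.25 ± 0.20), the lowest ratio among the measured pathway genes. Cth, cystathionine gamma-lyase, which releases cysteine, gave 4912 and 2464 intensity units and was 2.64-fold lower (-1.40 ± 0.20). Cth was the gene nearest to the 2-fold line. Without scaling its log2 ratio was -0.995, just inside 2-fold, and it was -0.95 with ratios centred on hepatocyte markers.

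The taurine branch gave the least information. Cdo1, cysteine dioxygenase, which oxidises cysteine to its sulfinate, gave 1381 intensity units for control and 456 for senecionine, both well above background. Because the control spot carried an outlier flag it is not counted. With the flagged spot kept, Cdo1 was 4.02-fold lower (-2.01 ± 0.20), and 8 of 8 members were then at least 2-fold lower. Csad, cysteine sulfinate decarboxylase, gave 10.7 ± 5.08 intensity units for control and 2.42 ± 2.41 for senecionine (spot error) and was not well above background on either array, so no ratio is given.

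**Figure D2:**
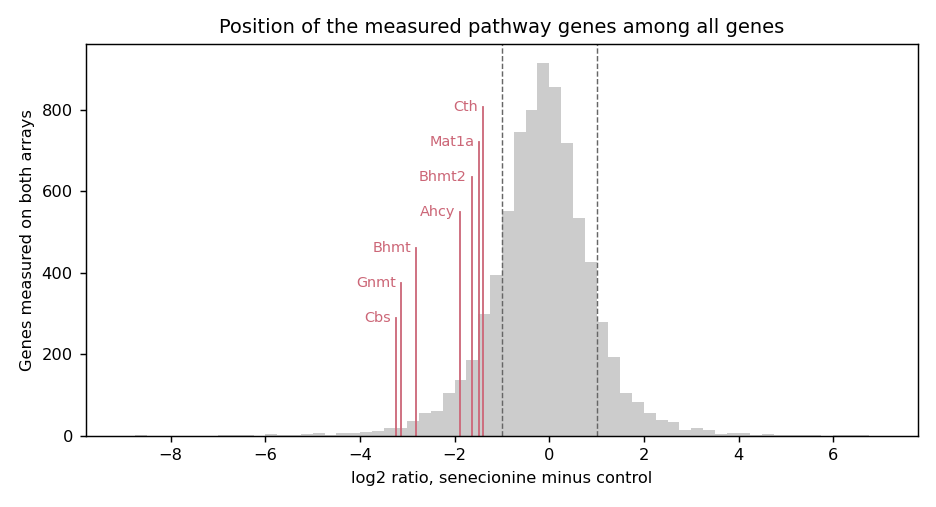
Histogram of the log2 ratio (senecionine minus control) of the 7792 genes measured on both arrays, in steps of 0.25, with the 7 measured pathway genes as red lines whose heights carry no value. Dashed lines mark 2-fold, and all 7 lie left of the lower line, from Cth at -1.40 to Cbs at -3.25.

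Among themselves the 7 ratios formed an upper and a lower stretch. Cbs (-3.25) and Gnmt (-3.13) differed by 0.12, within their combined spot error of 0.29, and Gnmt and Bhmt by 0.30, just beyond it. Between Bhmt (-2.82) and Ahcy (-1.89) lay a gap of 0.94, which is also the difference between the 2 probes of Bhmt. From Ahcy through Bhmt2 and Mat1a to Cth (-1.40), each step, of 0.24, 0.16 and 0.08, was within the combined spot error. The order within the low stretch depends on the probe, since the other Bhmt probe would place Bhmt below Cbs. The stretches also depend on the scaling. Gnmt, Bhmt and Ahcy lay at -2.91, -2.31 and -1.48 with quantile normalization and at -2.89, -2.35 and -1.56 with cyclic loess. Bhmt thus stood apart from both others. With normexp, at -2.66, -2.52 and -1.62, it stayed near Gnmt. Ranked from the lowest ratio among the 7792 measured genes, Cbs was at 84, Gnmt at 92, Bhmt at 124, Ahcy at 417, Bhmt2 at 568, Mat1a at 705 and Cth at 791.

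The authors' deposited table, a list of 7404 probes that differ by more than 2-fold between its columns, holds 12 of the 13 probes, all except that of Csad. Of all 40516 unflagged probes used here, the table holds 7355. Its scaling and the rule for detection are not given in the sources used here. In the authors' deposited table Cbs differs by -3.06, Gnmt by -2.84, Cth by -1.08 and Cdo1 by -1.88 on the log2 scale. The same table has the Mat2a probes at 2.14 and 1.03, although neither was well above background on the control array. All these directions match those found here, as do those of all 7355 shared probes. The deposited values come from the same 2 arrays, so this match is no independent support.

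The pathway genes were next set beside 10 lists of genes around them, 141 genes in all, chosen by function with earlier results of these data known. Of the 99 measured, 30 were at least 2-fold lower and 10 at least 2-fold higher, which is 30.3% and 10.1% against 17.7% and 11.2% of all measured genes. Their median log2 ratio was -0.36. Without scaling, 15 of the 99 were lower and 16 higher, against 785 (10.1%) and 1617 of all 7792 measured genes.

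**Figure D3:**
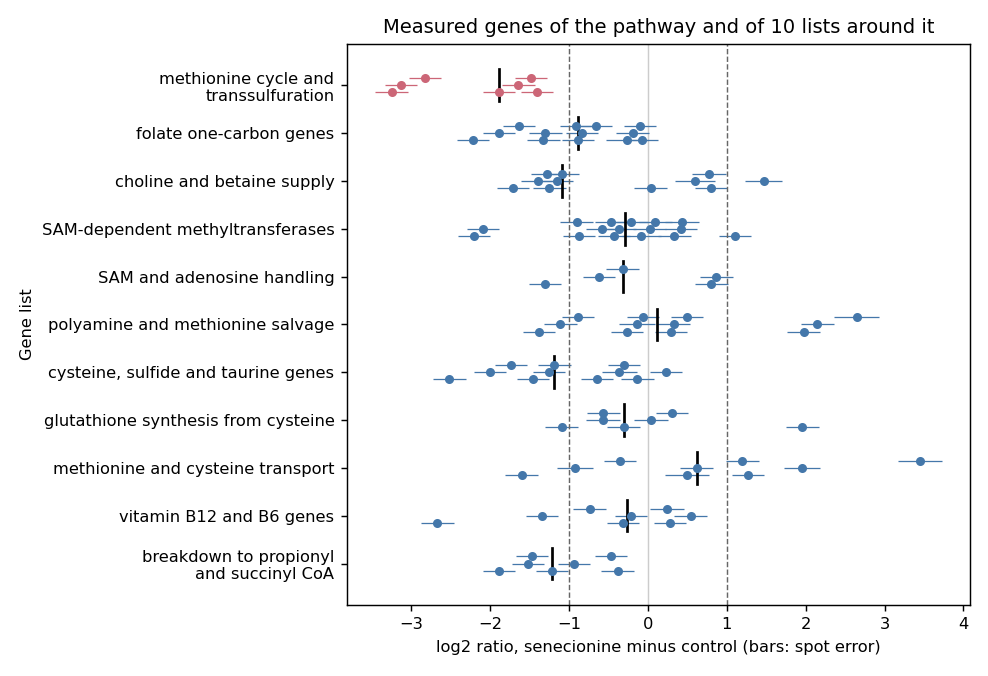
Log2 ratio (senecionine minus control) of each measured gene, with bars for the spot error, in the methionine cycle and transsulfuration (red) and in 10 lists around them (blue). Black ticks are list medians and dashed lines mark 2-fold. The pathway's own genes all lie left of -1, whereas 5 of the 10 lists have members past 2-fold on both sides.

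Folate enzymes, which supply the methyl group for the alternative remethylation of homocysteine, were in part lower and in part undetected for control. Of 13 measured (median -0.89), 5 passed 2-fold lower and none 2-fold higher, against 17.7% and 11.2% of all measured genes. With normexp or without scaling, 3 of the 13 were lower and none higher. Of all measured genes, 9.77% and 10.1% were lower in these 2 settings. The formiminotransferase Ftcd was 4.65-fold lower (-2.22 ± 0.20), the formyltetrahydrofolate dehydrogenase Aldh1l1 3.69-fold and the mitochondrial serine hydroxymethyltransferase Shmt2 3.09-fold lower. Aldh1l2, the mitochondrial relative of Aldh1l1, had a log2 ratio of -1.32, but -0.87 with ratios centred on hepatocyte markers. A further 6 of the 19 named were detected for senecionine only, as were 19.1% of all named genes. A lower gene can hardly pass through that filter, and 2 of the 6 have no bound above 1. Mthfd2 and Mthfd1l among them were picked out after their values were seen. Mthfd2, a mitochondrial folate dehydrogenase known from embryonic and dividing cells, gave 7.46 intensity units for control and 329 for senecionine and was at least 12.1-fold higher. Mthfd1l, of the same mitochondrial route, was at least 4.55-fold and Mtr, methionine synthase, at least 2.15-fold higher. Mtr gave 19.6 intensity units for control, not well above background, and 58.5 for senecionine. Of the homocysteine methyltransferases, Bhmt and Bhmt2 were thus lower, whereas Mtr had a bound above 1.

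The list around betaine and choline also holds enzymes of ethanolamine, dimethylglycine and sarcosine, so its counts give no direction for choline use. Of its 11 measured genes (median -1.08), 6 were lower and 1 higher, against 17.7% and 11.2% of all measured genes. With normexp background correction 1 was lower and none higher, and without scaling 1 was lower and 4 higher. Pcyt2, of phosphatidylethanolamine synthesis, was 3.28-fold lower. The betaine carrier Slc6a12 had a log2 ratio of -1.39 and Chdh, choline dehydrogenase, which makes betaine, one of -1.27. These fell short of 2-fold with normexp, at -0.95 and -0.87. Chka, choline kinase, the 1 higher gene, had a log2 ratio of 1.47, and 0.93 with normexp.

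SAM-dependent methyltransferases other than Gnmt lay within 2-fold in 13 of 16, as did 5540 of all 7792 measured genes. Of the 16, 2 were lower and 1 higher, against 17.7% and 11.2% of measured genes. The list's median of -0.29 was 0.11 without scaling and 0.16 when centred on hepatocyte markers. With median scaling, 4 of the 16 were lower and none higher. The lower ones were Gamt, of creatine synthesis (4.60-fold lower, -2.20 ± 0.20), and Pemt, of phosphatidylcholine synthesis (4.27-fold lower, -2.09 ± 0.20), which are known as large users of SAM in liver. Their other probes gave -1.89 and -2.13. Nnmt, nicotinamide N-methyltransferase, gave 1897 and 1821 intensity units and a log2 ratio of -0.47. The higher gene was the arginine methyltransferase Prmt1 at 1.11, or 0.98 with median scaling.

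Of 5 measured genes that regulate SAM or clear adenosine, 1 was lower and none higher, against 17.7% and 11.2% of all measured genes. The list's median of -0.32 was 0.01 with the mean of probes and 0.22 with the dimmest probe. It was 0.09 without scaling, where none was lower and 2 were higher, and 0.13 when centred on hepatocyte markers. Adk, adenosine kinase, which removes the adenosine released by Ahcy, was 2.48-fold lower (-1.31), but at -0.85 when centred on hepatocyte markers. Mat2b, the regulatory partner of the Mat2a product, gave 173 and 419 intensity units and a log2 ratio of 0.87 ± 0.21, within 2-fold, but 1.27 without scaling and 1.32 when centred on hepatocyte markers.

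Polyamine and methionine salvage genes had 3 higher and 2 lower of 12, against 11.2% and 17.7% of all measured genes. The list's median of 0.11 was -0.01 with median scaling, and none of the list was lower with normexp or without scaling. All 3 higher genes act in polyamine turnover. Smox, spermine oxidase, was 6.27-fold higher (2.65 ± 0.29), and 1.53 on the log2 scale with normexp. Sat1, which acetylates polyamines for export, was 4.43-fold higher (2.15 ± 0.20). Odc1, ornithine decarboxylase, was 3.93-fold higher (1.97 ± 0.21), with 2.76 on its other probe. Oaz1, the antizyme that inhibits Odc1, had a log2 ratio of -1.38, and -0.92 when centred on hepatocyte markers.

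Downstream of cysteine, the list of sulfide, sulfinate and taurine genes had 6 lower and none higher of 11 (median -1.18). Of all measured genes, 17.7% were lower and 11.2% higher. Without scaling 4 of the list were lower and none higher, against 10.1% of all measured genes lower. Tst, the thiosulfate sulfurtransferase of mitochondria, was 5.72-fold lower (-2.52 ± 0.20). The aspartate aminotransferases Got2 and Got1, which also act on cysteine sulfinate, were 3.99-fold and 3.33-fold lower, and sulfite oxidase, Suox, 2.75-fold. Genes of glutathione synthesis and turnover had 1 lower and 1 higher of 7 (14.3% each), near those shares of all measured genes. The list's median of -0.31 was 0.01 with quantile normalization, 0.02 with cyclic loess, 0.10 without scaling and 0.15 when centred on hepatocyte markers. Gclc, which limits glutathione synthesis, gave 124 and 111 intensity units and a log2 ratio of -0.57 ± 0.21. Chac1, which degrades glutathione under stress, was 3.88-fold higher (1.96 ± 0.21), and its relative Chac2 had a log2 ratio of -1.09, or -0.64 when centred on hepatocyte markers.

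Of 9 measured carriers of methionine, cysteine and related amino acids, 4 were at least 2-fold higher and 1 lower. Of all measured genes, 11.2% were higher and 17.7% lower. The list's median of 0.62 was 0.49 with the dimmest probe, where 2 were lower. It was 1.03 without scaling, where 5 were higher, as were 1617 of all 7792 measured genes. Slc1a5, a carrier of neutral amino acids, gave 33.7 and 487 intensity units and was 10.9-fold higher (3.45 ± 0.28), or 2.28 on the log2 scale with normexp. Slc7a8 was 3.87-fold and Slc3a2, the heavy chain that brings several such carriers to the membrane, 2.41-fold higher. Slc38a3, a hepatocyte glutamine carrier, was 3.03-fold lower. Slc1a4, which also carries neutral amino acids, was at least 5.09-fold higher, detected for senecionine only, and was picked out after its value was seen. Slc7a11, the cystine carrier, was not well above background on either array, at 6.88 and 2.81 intensity units.

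Among vitamin B12 and B6 genes 2 of 8 (25%) were lower and none higher, against 17.7% and 11.2% of all measured genes. The list's median of -0.26 was 0.14 without scaling and 0.19 when centred on hepatocyte markers. Pdxp, a pyridoxal phosphate phosphatase, was 6.35-fold lower (-2.67 ± 0.21), with -1.83 on its other probe. Pdxk, pyridoxal kinase, which supplies the cofactor of Cbs, Cth and Csad, had a log2 ratio of -1.34, or -0.89 when centred on hepatocyte markers. Of 7 measured genes that take the carbon left from homocysteine through propionyl to succinyl CoA, 4 were lower and none higher (median -1.22). This compares with the same 17.7% and 11.2% of all measured genes. The 4 were Pcca (3.70-fold, but -0.37 on its other probe), Bckdha (2.86-fold), Bckdhb (2.77-fold) and Mcee, whose log2 ratio of -1.22 was -0.76 when centred on hepatocyte markers.

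Markers of cell types were read on the same arrays. Of 8 hepatocyte markers, 4 had unflagged probes, all well above background on both arrays, with a summed signal of 358229 intensity units for control and 339970 for senecionine. Albumin (Alb) had a log2 ratio of -1.14, Serpina1 -0.57, Fgb -0.34 (0.58 on its other probe) and Apob 0.54. Their median was -0.46, or 0.09 with cyclic loess, and with flagged spots kept the 8 markers had a median of -0.62. Relative to the median of the 4 markers, 6 of the 7 measured pathway genes were at least 2-fold lower, against 9.55% of all measured genes. Cth was the exception. Whether the median of these 4 markers follows hepatocyte number was not tested. Neural transcripts were lower as well. Of 18 markers of neurons, oligodendrocytes and astrocytes, 17 could be named and 12 measured, of which 11 were at least 2-fold lower after senecionine. Their summed signal was 8935 intensity units for control and 988 for senecionine, and the astrocyte markers Gfap and S100b were not well above background on either array. Of neutrophil markers, 2 were measured, S100a8 and S100a9, at 77.4-fold and 92.2-fold higher, and they make up most of the sum over 5 markers of 109 intensity units for control and 9187 for senecionine. Of 3 measured sinusoidal endothelial markers, Dnase1l3 was 20.7-fold and Kdr 7.42-fold lower, and the sum was 7719 and 2318 intensity units. Of 5 Kupffer cell and macrophage markers, Clec4f was 8.98-fold and Adgre1 2.43-fold lower, and Cd68 was 2.09-fold higher. Both measured bile duct markers were higher, Epcam 5.83-fold and Krt19 3.15-fold, and Spp1 was at least 106.8-fold higher. Of 5 stellate cell and fibroblast markers, Dcn was 11.8-fold and Des 5.43-fold higher, from control signals of 47.6 and 46.9 intensity units. Lrat was 5.02-fold lower. The brightest, Col3a1 (-0.88) and Col1a1 (-0.17, or 0.65 on its other probe), lay within 2-fold. The sum over these 5 was 20234 intensity units for control and 17055 for senecionine. Of lymphocyte markers, Cd3g was 3.21-fold higher and Gzma 3.32-fold lower. The part of any of these groups in the pathway ratios was not tested.

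**Figure D4:**
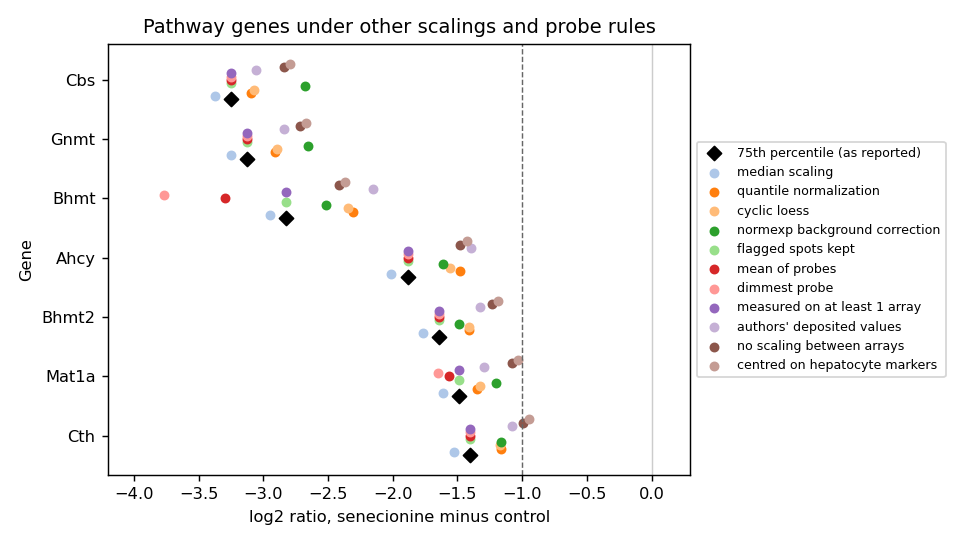
Log2 ratio (senecionine minus control) of the 7 measured pathway genes as reported (black diamonds) and under 11 other scalings, detection rules, probe rules or value sources (coloured points). The dashed line marks 2-fold lower. Only Cth crosses it, without scaling (-0.995) and when centred on hepatocyte markers (-0.95).

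Under the 11 other settings without a change of threshold, Cbs ranged from -3.38 to -2.68, Gnmt from -3.25 to -2.66 and Bhmt from -3.77 to -2.16. The range was -2.01 to -1.40 for Ahcy, -1.77 to -1.19 for Bhmt2, -1.65 to -1.03 for Mat1a and -1.53 to -0.95 for Cth. Every gene kept its sign, and the 6 other than Cth stayed at least 2-fold lower. Not all 11 could have shown otherwise. Keeping flagged spots and detection on either array left these 7 values as they were, the probe rules touch Bhmt and Mat1a only, and the authors' deposited table holds only probes past 2-fold.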

How the data were processed

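Members and gene lists were chosen with earlier results of these data known. The authors scanned the arrays and extracted intensity values (Agilent Feature Extraction 10.7.3.1, as the submitters' processing notes state). The deposited processed signals are corrected within each array (background and spatial trend, per the file headers) and not scaled between arrays. A further table deposited by the authors holds log2 values of 7404 selected probes; its scale was found by comparison with the scanner signals.

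Here log2 processed signals were centred per array on the 75th percentile of spots other than controls. Spots with an outlier flag on either array were left out (522 on control, 497 on senecionine), leaving 40516 probes. None was saturated. Symbols came from RefSeq accessions (GRCr8), matching 17250 probes to 13667 genes. The brightest probe well above background on both arrays represented a gene. Counts use a log2 ratio of at least 1 in either direction. A gene detected on 1 array has a lower bound: its bright signal over the dim array's lowest signal well above background, or over its own dim signal where that is higher. Named genes were the members, in each list up to 4 genes whose ratio lay farthest from 0, and 10 fixed genes; 3 genes with a bound were added after their values were seen. Some named genes are not reported here. The counting was tested on simulated data. Alternatives were other scalings, normexp correction (offset 50, on median spot signals), and other filters, probe rules and thresholds. Scaling and normexp used limma 3.58.1 in R 4.3.3, counting used pandas 2.3.3 under Python 3.11.15 with numpy 2.4.6, and plots matplotlib 3.10.9. Precision is limited by the number of arrays.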

Additional observations from a re-analysis of the deposited data

How the results depend on the processing

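The direction of the 7 measured pathway genes was the same in all 11 alternatives that give them a value. Their median log2 ratio of -1.89 moved by more than the spot error to -1.48 with quantile normalization, -1.56 with cyclic loess, -1.62 with normexp, -1.40 with the authors' deposited values, -1.48 without scaling and -1.43 when centred on hepatocyte markers. At 4-fold 3 were lower. With detection on at least 1 array the count of higher members was 1, from Mat2a over a control signal not above background, where its bound is 1.37-fold. Of the 99 other pathway genes, 30 were lower and 10 higher. The lower count was 19 with normexp, 5 at 4-fold, and 15 both without scaling and centred on hepatocyte markers. Of all measured genes, 9.77% were lower with normexp, 4.63% at 4-fold, 10.1% without scaling and 9.55% when centred. The higher count was 19 with detection on at least 1 array, which takes ratios over control signals not above background and so supports nothing. It was 16 at 1.5-fold, 3 at 4-fold, 16 without scaling and 17 centred on hepatocyte markers. Of all 7792 measured genes, 1638 were higher at 1.5-fold, 213 at 4-fold, 1617 without scaling and 1729 when centred. Of 32 named genes of these lists past 2-fold, 22 stayed past it under all 6 other scalings and none changed sign. Without scaling, the median of all measured genes moved by 0.41, with hepatocyte centring by 0.46 and with median scaling by -0.13. No scaling and hepatocyte centring were added after the data were seen. The cause of these shifts was not tested. No paired analysis was possible because each group has 1 array.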

Other observations

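Bhmt and Bhmt2 lie next to each other in the rat genome, with Rpl36l7 as the only protein-coding gene annotated between them, and the following gene is Dmgdh, dimethylglycine dehydrogenase, which removes methyl groups from the dimethylglycine that Bhmt makes from betaine. Dmgdh had a log2 ratio of -1.25, or -0.84 without scaling, whereas Homer1, the nearest measured gene on the other side of Bhmt, was at -0.15. Over all 7 measured pathway genes, the nearest measured gene on either side, with these genes themselves left out, gave 12 neighbours, of which Dmgdh and Pdxk belong to the lists above. Of the 12, 5 were at least 2-fold lower and none at least 2-fold higher, against 17.7% and 11.2% of all measured genes, but without scaling only Ptger3 was lower. Of 6 neighbours of Mat2a, Cdo1 and Csad, 1 was lower (Soat2, -1.39) and 3 were higher, Capg (1.88), Eif1a (1.37) and Itgb7 (2.38). Without scaling, none of these 6 was lower and 4 were higher, with Soat2 at -0.98. Of all 7792 measured genes, 785 were then lower and 1617 higher. The lower ones of the 12, named after their values were seen, were Mbl1 beside Mat1a (-1.19), Pex6 beside Gnmt (-1.10), Dmgdh, Pdxk beside Cbs (-1.34, across 6 unmeasured genes) and Ptger3 beside Cth (-2.55).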
